A study of Rattus norvegicus with 12 samples.

Results

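The vascular miRs examined here are 6 mature rat miRs, rno-miR-126a-3p, rno-miR-126a-5p, rno-miR-221-3p, rno-miR-222-3p, rno-miR-143-3p and rno-miR-145-5p (written without the prefix from here on), picked by name as miRs associated with endothelium, platelets and smooth muscle. All 6 were found among the 426 miRs of the count table. Small RNA was sequenced from extracellular vesicles (EVs) of rat serum in 12 libraries, 1 for each biological replicate in the labels. In all 4 groups the Achilles tendon of wild-type female Wistar rats had been punctured with a needle, and the animals then received daily injections either of rapamycin, an inhibitor of the growth-regulating kinase mTOR, or of vehicle alone, with serum taken on day 7 or on day 21 post-injury (3 libraries per treatment and day). No serum of uninjured rats was in the series, so each comparison is between treatments or between days and none is against an uninjured level. The labels name tendon as the tissue, whereas the design text and the extraction protocol describe EVs from serum. The vesicles were enriched on a size-exclusion column, and RNA released by platelets as the blood clots cannot be told apart from RNA of circulating vesicles in these data.

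A miR is a short RNA that guides the silencing machinery to mRNAs, and the bases at its 5′ end, called the seed, choose the targets. miR-126 lies within the gene of the endothelial factor Egfl7 and supports VEGF signalling and vessel integrity in endothelium, and platelets carry it in large amounts. miR-221 and miR-222 come from 1 precursor cluster, restrain Kit in endothelial cells and restrain the cell cycle inhibitor Cdkn1b in proliferating smooth muscle, while miR-143 and miR-145 come from another cluster and hold smooth muscle cells in their contractile state.

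The sequences shown are those of the pairs whose ratios are compared, the 5p and 3p arms cut from the same miR-126a hairpin and the 3p arms of miR-221 and miR-222. Each is written 5′ to 3′ from RefSeq (assembly GRCr8), and the capitals mark the seed, bases 2 to 8.
miR-126a-3p: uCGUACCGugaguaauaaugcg
miR-126a-5p: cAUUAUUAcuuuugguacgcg
miR-221-3p: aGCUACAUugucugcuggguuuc
miR-222-3p: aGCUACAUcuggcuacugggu
The arms of miR-126a had no seed in common, whereas miR-221-3p and miR-222-3p were identical over their first 8 bases and at 11 of the 21 positions compared from the 5′ end. Of the 426 miRs in the table, 385 had a mature sequence in RefSeq, and among these the seed of miR-221-3p was found only in miR-222-3p. None of the 385 shared the seed of miR-126a-3p, of miR-126a-5p, of miR-143-3p (GAGAUGA) or of miR-145-5p (UCCAGUU). RefSeq lists both arms of miR-126a, miR-126a-3p and miR-126a-5p, under a hairpin gene that it names Mir126b. A hairpin gene named Mir126a spans the same place, and both hairpin genes overlap Egfl7. Mir221 and Mir222 overlapped the same lncRNA genes on chromosome X, and Mir143 and Mir145 both overlapped the lncRNA gene Carmn.

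Depth was low and 2 libraries stood apart. The study's list of read composition holds 10 of the 12 libraries, and the libraries it leaves out are vehicle day 7 replicate 1 and rapamycin day 7 replicate 2. A figure legend of the study describes its read composition as that of samples taken on to analysis, and counts 10 samples in the miR analysis. Its table of differentially expressed (DE) miRs at day 7 instead states 3 animals per timepoint and treatment. No reason for leaving out libraries is given. miR counts summed to 16327 to 51391 in the 10 listed libraries and to 95834 and 51431 in the unlisted ones. Synthetic spike-in RNAs, added to the extracted RNA before library preparation, took 52.5% to 71.8% of counts in the listed libraries against 13.6% and 24.3% in the unlisted. The ratio of miR counts to counts of the 7 calibrator spike-ins was 0.686 to 1.58 in the listed libraries, 12.8 in vehicle day 7 replicate 1 and 5.53 in rapamycin day 7 replicate 2. Both unlisted libraries were of day 7, 1 in each treatment, so a difference between days is given with and without them. They also differed in marker miRs of blood cells, with the 5 erythrocyte miRs at 3.37% and 7.61% of miR counts against 10.7% to 19.4% in the listed libraries and the 12 platelet miRs at 19.7% and 18.8% against 26.5% to 35.0%. The 5 leukocyte miRs, which share miR-223-3p with the platelet list, held 0.570% and 0.858% against 1.45% to 3.77%. The 5 striated muscle miRs held 1.10% in vehicle day 7 replicate 1 and at most 0.198% elsewhere. The 3 liver miRs held 1.34% and 1.09% in the unlisted libraries and at most 1.06% in the listed ones.

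Together the vascular miRs took 2.72% to 5.98% of miR counts in the listed libraries (median 3.96%), 6.98% in the unlisted vehicle library and 8.18% in the unlisted rapamycin library, which were the highest values of the 12. Per calibrator count their sum was 0.0264 to 0.077 in the listed libraries against 0.890 and 0.453 in the unlisted. In serum EVs, fewer vesicles from a cell type and less of a miR per vesicle cannot be told apart. Levels are given as CPM, counts scaled to a common library total of 1000000 after TMM scaling, which adjusts for differences in library composition. Averaged over 12 libraries, miR-143-3p was highest at 18310 CPM (SD 6024), followed by miR-126a-3p at 13443 (SD 4339) and miR-126a-5p at 6585 (SD 2296). Lower levels were found for miR-221-3p at 3552 CPM (SD 1966), miR-145-5p at 2657 (SD 1492) and miR-222-3p at 789 (SD 510). miR-143-3p ranked between place 5 and place 23 among all miRs of a library, and miR-222-3p between place 58 and place 122.

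This order held within most libraries, since miR-143-3p had more counts than miR-126a-3p in 10 of 12, miR-126a-5p more than miR-221-3p in 10 of 12, and miR-221-3p more than miR-145-5p in 11 of 12. The level of miR-126a-3p was above that of miR-126a-5p in 12 of 12 libraries, and miR-145-5p was above miR-222-3p in 12 of 12. Of neighbours in the order, the arms of miR-126a were the 1 pair whose ranges of mean ± SD did not overlap, although the order within libraries held in most or all of the 12 as counted here. Adapter ligation differs between miR sequences, so the order is one of sequenced counts.

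**Figure D1:**
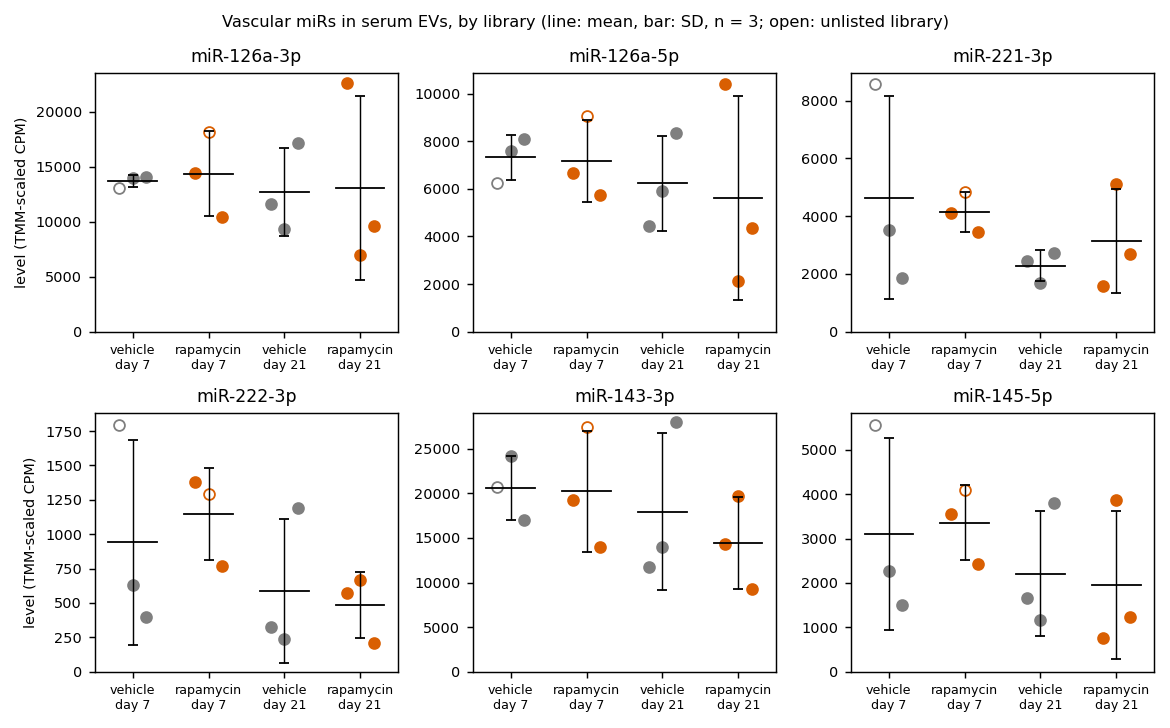
Level of each vascular miR (TMM-scaled CPM, linear axis from 0) in the 12 libraries by treatment and day, where the line is the group mean, the bar the SD (n = 3) and open circles the unlisted libraries. The groups overlap for each miR at each day, and the unlisted vehicle library is the highest of the 12 for miR-221-3p (8579 CPM), miR-222-3p (1793 CPM) and miR-145-5p (5563 CPM).

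Neither arm of miR-126a differed detectably with rapamycin at either day. At day 7, miR-126a-3p stood at 13070.1, 13985 and 14062 CPM with vehicle and at 14419, 18145 and 10439.5 CPM with rapamycin. The vehicle values lay close together inside the range of the rapamycin values. At day 21, miR-126a-3p was found at 11644, 9349 and 17113 CPM with vehicle and at 22582, 6949 and 9563 CPM with rapamycin. Rapamycin day 21 replicates 1 and 2 were the highest and the lowest of the 12 libraries, so the group means of 12702 ± 3989 (SD, n = 3) and 13031 ± 8374 (SD, n = 3) were less apart than the animals within either group. The fitted log2 fold change with rapamycin was 0.07 (SE 0.48) for miR-126a-3p at day 7 and 0.03 (SE 0.48) at day 21. With timepoint as a blocking factor it was 0.05 (SE 0.32, 95% interval -0.58 to 0.68, edgeR QL test, adjusted p = 0.994).

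miR-126a-5p, the arm with fewer counts, followed its partner. Its level was 6250.2, 7598 and 8112 CPM with vehicle and 6674, 9065 and 5752 CPM with rapamycin at day 7. At day 21 it was 4434, 5898 and 8352 CPM with vehicle and 10403, 2122 and 4358 CPM with rapamycin, and the same rapamycin libraries, replicates 1 and 2, were again highest and lowest. Groups overlapped at both days. The blocked log2 fold change of miR-126a-5p was -0.09 (SE 0.34, 95% interval -0.76 to 0.58, edgeR QL test, adjusted p = 0.994).

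Within a library, the ratio of miR-126a-3p to miR-126a-5p is free of scaling. It ran from 1.59 to 3.27 with a mean of 2.13 (SD 0.450, n = 12). At day 7 the ratio of miR-126a arms was 2.09, 1.84 and 1.73 with vehicle and 2.16, 2.00 and 1.81 with rapamycin, a narrow range in which the treatments overlapped. At day 21 it spread more, from 1.59 to 2.63 with vehicle and from 2.17 to 3.27 with rapamycin. The value of 3.27 came from rapamycin day 21 replicate 2, where 167 counts of miR-126a-3p stood against 51 of miR-126a-5p (exact 95% interval of the ratio 2.38 to 4.57). The lowest value, from vehicle day 21 replicate 2, had an interval of 1.28 to 1.96. These intervals cover counting error only. The log2 ratio was 0.18 higher with rapamycin (exact two-sided permutation test within days, p = 0.275, adjusted p = 0.608 over 6 tests of ratios), and 0.22 higher at day 21 than at day 7 (exact permutation test, p = 0.185, adjusted p = 0.608). The smallest p that the 400 arrangements allow is 0.005. In the 10 listed libraries the differences in the miR-126a arm ratio were 0.23 (exact permutation test, p = 0.217) and 0.26 (exact permutation test, p = 0.17).

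miR-221-3p was the vascular miR whose treatment difference over both days moved most with the choice of libraries. At day 7 its level was 8579, 3509 and 1850 CPM with vehicle and 4102, 4841 and 3451 CPM with rapamycin. The value of 8579 CPM was from the unlisted vehicle library and was the highest of the 12, and the other vehicle values lay on both sides of the lowest rapamycin value. At day 21 miR-221-3p stood at 2451, 1685 and 2743 CPM with vehicle and at 1586, 5118 and 2708 CPM with rapamycin, with overlap between the treatments. Over 12 libraries the blocked log2 fold change of miR-221-3p was 0.14 (SE 0.37, 95% interval -0.58 to 0.85, edgeR QL test, adjusted p = 0.976). In the 10 listed libraries it was 0.57 (SE 0.33, 95% interval -0.07 to 1.22, edgeR QL test, adjusted p = 0.808). At day 7 alone the fitted value changed sign, from -0.17 (SE 0.52) over 12 libraries to 0.54 (SE 0.52) in the listed ones, and neither passed the test.

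miR-222-3p was the scarcest member, with 5 to 214 counts in a library and fewer than 10 in 4 of the 6 day 21 libraries, which limits its precision. At day 7 it was found at 1793, 631 and 401 CPM with vehicle and at 1378, 1295 and 767 CPM with rapamycin, and the treatments overlapped only through the unlisted vehicle library. At day 21 it stood at 324, 241 and 1187 CPM with vehicle and at 571, 666 and 212 CPM with rapamycin, again with overlap. The blocked log2 fold change of miR-222-3p was 0.02 (SE 0.50, 95% interval -0.96 to 1.00, edgeR QL test, adjusted p = 0.994) over 12 libraries and 0.37 (SE 0.54, 95% interval -0.68 to 1.42) in the listed 10. The day 7 value in the listed libraries was 1.09 (SE 0.82, 95% interval -0.51 to 2.70, edgeR QL test, adjusted p = 0.979).

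The ratio of miR-221-3p to miR-222-3p, which share a seed and a cluster, ran from 2.31 to 12.8 (mean 5.53, SD 2.92, n = 12). Day 7 values were 4.79, 5.56 and 4.61 with vehicle and 2.98, 3.74 and 4.50 with rapamycin, so that the 3 vehicle values lay above the 3 rapamycin values. The counting intervals of these libraries overlapped, as with 3.61 to 8.89 for vehicle day 7 replicate 2 and 2.68 to 7.97 for rapamycin day 7 replicate 3. At day 21 the ratio of miR-221-3p to miR-222-3p was 7.56, 7.00 and 2.31 with vehicle and 2.78, 7.69 and 12.8 with rapamycin, where the highest value rested on 5 counts of miR-222-3p (exact 95% interval 5.21 to 40.8). Within days the mean log2 ratio differed by -0.03 with rapamycin (exact permutation test, p = 0.94, adjusted p = 0.94), and by 0.04 in the listed libraries (exact permutation test, p = 0.9). Between days it was 0.36 higher at day 21 (exact permutation test, p = 0.4, adjusted p = 0.608).

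miR-143-3p, the most abundant of the 6, did not differ detectably with rapamycin. At day 7 it was found at 20753, 24183 and 17003 CPM with vehicle and at 19226, 27410.1 and 14019 CPM with rapamycin. The vehicle values fell inside the range of the rapamycin values. At day 21 miR-143-3p stood at 11788, 13963 and 28045 CPM with vehicle and at 14336, 19681 and 9309 CPM with rapamycin, and vehicle replicate 3 was the highest of the 12 libraries. The blocked log2 fold change was -0.17 (SE 0.31, 95% interval -0.79 to 0.45, edgeR QL test, adjusted p = 0.942), and in the listed libraries -0.23 (SE 0.23, 95% interval -0.68 to 0.22).

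miR-145-5p varied more between animals than its cluster partner. Its day 7 level was 5563, 2272 and 1493 CPM with vehicle and 3551, 4085 and 2429 CPM with rapamycin, and here too the unlisted vehicle library was highest. Without the unlisted libraries, the remaining vehicle values of miR-145-5p lay below the remaining rapamycin values. At day 21 it was 1658, 1164 and 3808 CPM with vehicle and 761, 3870 and 1227 CPM with rapamycin, with full overlap. The blocked log2 fold change of miR-145-5p was -0.03 (SE 0.38, 95% interval -0.77 to 0.71, edgeR QL test, adjusted p = 0.994) over 12 libraries and 0.26 (SE 0.36, 95% interval -0.44 to 0.96) in the listed 10, a change of sign between values that did not pass the test.

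For the smooth muscle cluster, the ratio of miR-143-3p to miR-145-5p ran from 3.73 to 18.8 (mean 8.47, SD 4.16, n = 12). At day 7 it was 3.73, 10.6 and 11.4 with vehicle and 5.41, 6.71 and 5.77 with rapamycin. The vehicle value of 3.73, from the unlisted library, was the lowest of the 6 and the other vehicle values were the highest, so the treatments overlapped. At day 21 the ratio of miR-143-3p to miR-145-5p was 7.11, 12 and 7.37 with vehicle and 18.8, 5.09 and 7.59 with rapamycin, so the treatments overlapped. The value of 18.8 in rapamycin day 21 replicate 1 rested on 12 counts of miR-145-5p (exact 95% interval 10.6 to 37.0). Within days the log2 ratio differed by -0.16 with rapamycin (exact permutation test, p = 0.675, adjusted p = 0.81), and by -0.36 in the listed libraries (exact permutation test, p = 0.417, adjusted p = 0.75). The difference between days was 0.36 (exact permutation test, p = 0.405, adjusted p = 0.608).

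**Figure D2:**
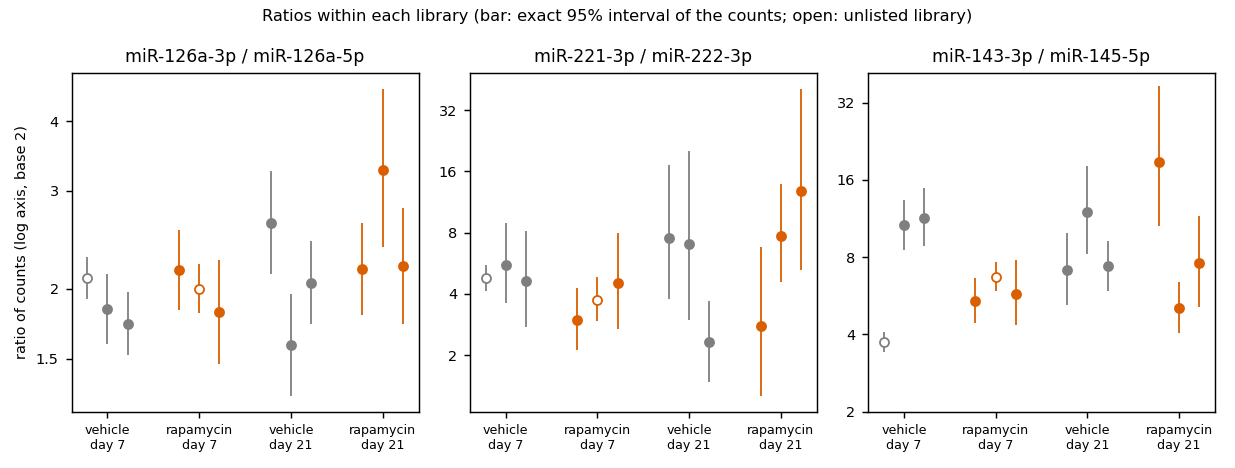
Ratio of counts of paired miRs in each library (log axis, base 2) by treatment and day, with the exact 95% interval of the counts and open circles for the unlisted libraries. The miR-126a arms stay between 1.59 and 3.27, whereas miR-221-3p to miR-222-3p spans 2.31 to 12.8 and miR-143-3p to miR-145-5p spans 3.73 to 18.8.

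None of the 6 vascular miRs was DE with rapamycin. With timepoint as a blocking factor, 0 of the 6 and 0 of all 426 miRs (0%) passed an adjusted p under 0.05 in edgeR's QL test, and 15 of the 426 (3.52%) had an unadjusted p under 0.05, none of them a vascular miR. At day 7 alone, 0 of 426 (0%) passed and 8 (1.88%) had an unadjusted p under 0.05, and at day 21 alone 0 (0%) passed and 12 (2.82%) had an unadjusted p under 0.05, again with no vascular miR among them. The interaction of treatment and timepoint called 0 of 426 (0%), with 14 (3.29%) at an unadjusted p under 0.05, none a vascular miR. In the 10 listed libraries it called 1 of 365 (0.274%), miR-150-5p, and 0 of the 6. In the 10 listed libraries, 2 of 365 miRs (0.548%) were DE for the treatment, let-7f-5p and miR-128-3p, and 0 of the 6 vascular miRs. DESeq2 called 0 of 426 for the treatment, at day 7 and at day 21, and 6, 3 and 6 miRs respectively had an unadjusted p under 0.05. The median log2 fold change of the 6 vascular miRs was 0.00 for the treatment against -0.10 over 426 miRs, with 3 of the 6 above zero.

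Over 12 libraries the blocked treatment interval reached from -0.79 to 0.45 for miR-143-3p, the narrowest in SE, and from -0.96 to 1.00 for miR-222-3p, the widest. Values inside those bounds are compatible with this fit, which pooled the spread between libraries over miRs of like level. The bounds differ in the 10 listed libraries, so they are no limits on what the counts of 1 miR allow. At day 7, 1.35% of 74 well-counted miRs (10 counts or more in each of the 12 libraries, which leaves out miR-222-3p) had groups that did not overlap, and 0 of the 6 vascular miRs. In the listed libraries, with 2 against 2, the share was 52.7%, and of the 6 vascular miRs 4 did not overlap (miR-221-3p, miR-222-3p and miR-145-5p higher, miR-126a-5p lower with rapamycin). These levels had TMM scaling over the 10 listed libraries. For miR-221-3p the gap was narrow (3267 CPM with vehicle, 3334 CPM with rapamycin). With TMM scaling over 12 libraries the same libraries overlapped (3509 and 3451 CPM). At day 21 the treatments overlapped for each of the 6, against 14.9% of the 74 without overlap.

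**Figure D3:**
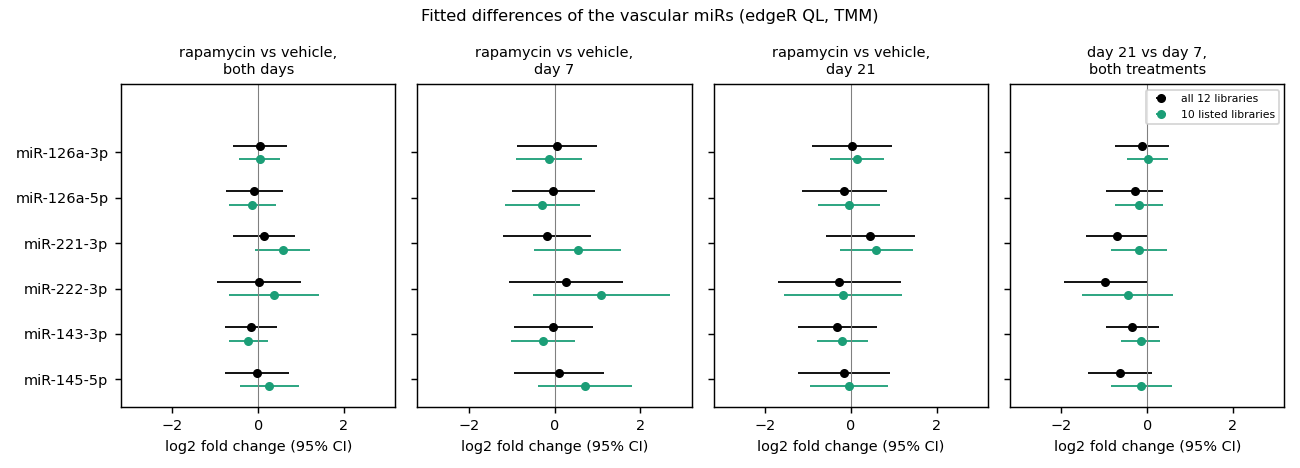
Fitted log2 fold change of each vascular miR (x axis, with 95% interval) for rapamycin against vehicle over both days, at day 7 and at day 21, and for day 21 against day 7, over all 12 libraries (black) and the 10 listed ones (green). Each treatment interval includes 0, and miR-221-3p moves from 0.14 to 0.57 between the sets of libraries.

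Between days the 6 vascular miRs were each lower at day 21 over all 12 libraries, but none passed the test after adjustment. The log2 fold change of day 21 against day 7, with treatment as a blocking factor, was -0.98 (SE 0.50, edgeR QL test, adjusted p = 0.342) for miR-222-3p. For miR-221-3p it was -0.71 (SE 0.37, edgeR QL test, adjusted p = 0.357), and for miR-145-5p -0.64 (SE 0.38, edgeR QL test, adjusted p = 0.443). Smaller values were found for miR-143-3p at -0.34 (SE 0.31), miR-126a-5p at -0.29 (SE 0.34) and miR-126a-3p at -0.13 (SE 0.32). Of all 426 miRs, 15 (3.52%) were DE between days, and 62 (14.6%) had an unadjusted p under 0.05, of which miR-222-3p was the 1 vascular miR. The DE miRs were miR-32-3p, which was higher at day 21, and miR-122-5p, miR-133a-3p, miR-141-3p, miR-199a-5p, miR-200a-3p, miR-201-5p, miR-218a-5p, miR-30b-5p, miR-378a-3p, miR-378b, miR-429, miR-497-5p, miR-802-5p and miR-99a-5p, which were lower. The median log2 fold change between days was -0.49 over the 6 vascular miRs, -0.54 over 426 miRs and 0.13 over 74 well-counted miRs, so the well-counted miRs were on balance on the other side of 0.

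In the 10 listed libraries the day differences of the vascular miRs were smaller. miR-222-3p was at -0.46 (SE 0.54), miR-221-3p at -0.19 (SE 0.33), miR-126a-5p at -0.19 (SE 0.28), miR-143-3p at -0.15 (SE 0.23), miR-145-5p at -0.14 (SE 0.36) and miR-126a-3p at 0.01 (SE 0.25). The sign of miR-126a-3p turned. Of 365 miRs, 1 (0.274%), the liver miR miR-122-5p, was DE between days in the listed libraries. By group, miR-222-3p was the 1 vascular miR whose days did not overlap, with each rapamycin library lower at day 21 than at day 7, where 18.9% of the 74 well-counted miRs, to which miR-222-3p does not belong, had no overlap in the rapamycin groups. The nearest of these libraries, at 767 CPM on day 7 and 666 CPM on day 21, held 18 and 16 counts of miR-222-3p. The counting intervals of their shares before TMM scaling overlapped (509 to 1273 and 433 to 1143 CPM).

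Scaling each library to its calibrator spike-ins in place of TMM gives the amount of a miR against a fixed amount of added RNA. Over all 12 libraries this scaling moved the median day difference of 426 miRs from -0.54 to -2.19 on the log2 scale. The vascular miRs then ranged from -2.44 (SE 0.73, edgeR QL test, adjusted p = 0.00665) for miR-126a-3p to -3.58 (SE 0.91, adjusted p = 0.00121) for miR-222-3p, and 6 of the 6 passed the test, as did 115 of 426 miRs (27%). Within the 10 listed libraries the same scaling moved the median of 365 miRs from -0.05 to -0.50, and 0 of the 6 passed, where 5 of 365 (1.37%) did. There miR-126a-5p was at -0.80 (SE 0.36, edgeR QL test, adjusted p = 0.354) and miR-143-3p at -0.66 (SE 0.31, edgeR QL test, adjusted p = 0.403). The calls of the vascular miRs between days thus rested on the unlisted libraries, in which miR-143-3p, for instance, stood at 330 and 191 counts per 1000 calibrator counts against 8.99 to 35.7 in the listed ones. With calibrator scaling of 12 libraries the blocked treatment difference was below 0 for each of the 6, from -0.50 for miR-126a-3p to -0.88 for miR-222-3p, and none passed the test. The median over 426 miRs was -0.76 in that fit, and in the listed libraries with calibrator scaling 3 of the 6 were above 0. What part RNA yield or input had in this was not tested.

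**Figure D4:**
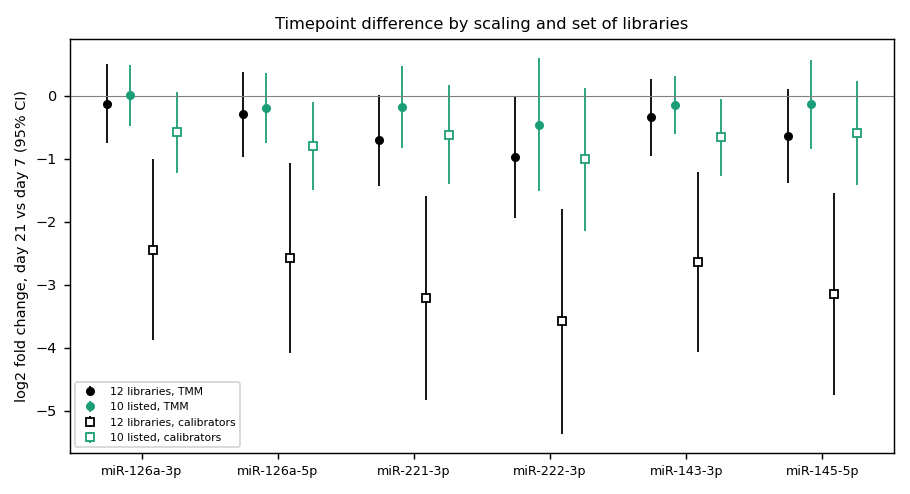
Day 21 against day 7 for each vascular miR (y axis, fitted log2 fold change with 95% interval) with TMM (circles) and calibrator scaling (squares), over all 12 libraries (black) and the 10 listed ones (green). Values from -2.44 to -3.58 appear only with calibrator scaling of all 12 libraries.

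Across libraries the pairs of vascular miRs ranged widely in how closely they went together. Pearson's r of log2 CPM is given as a description, over libraries that share their scaling and differ in depth and group. The arms of miR-126a went together (r = 0.90 over 12 libraries and 0.88 over the 10 listed). miR-221-3p went with miR-145-5p (r = 0.89 and 0.83), a miR of the other cluster, more closely than with its seed partner miR-222-3p (r = 0.72 and 0.51). miR-222-3p went with miR-145-5p (r = 0.82 and 0.72) and miR-143-3p (r = 0.77 and 0.74), and miR-143-3p with miR-145-5p (r = 0.71 and 0.67). Against miR-221-3p, miR-126a-3p had r = -0.18 and -0.45, and miR-126a-5p had r = -0.29 and -0.60. With miR-222-3p, miR-126a-3p had r = 0.42 and 0.33, and with miR-143-3p r = 0.40 and 0.20, near the r of miR-221-3p with miR-143-3p (0.47 and 0.36). Rapamycin day 21 replicates 1 and 2 show this contrast, since miR-126a-3p was highest in the first and lowest in the second whereas miR-221-3p was lowest in the first and at 5118 CPM in the second.

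**Figure D5:**
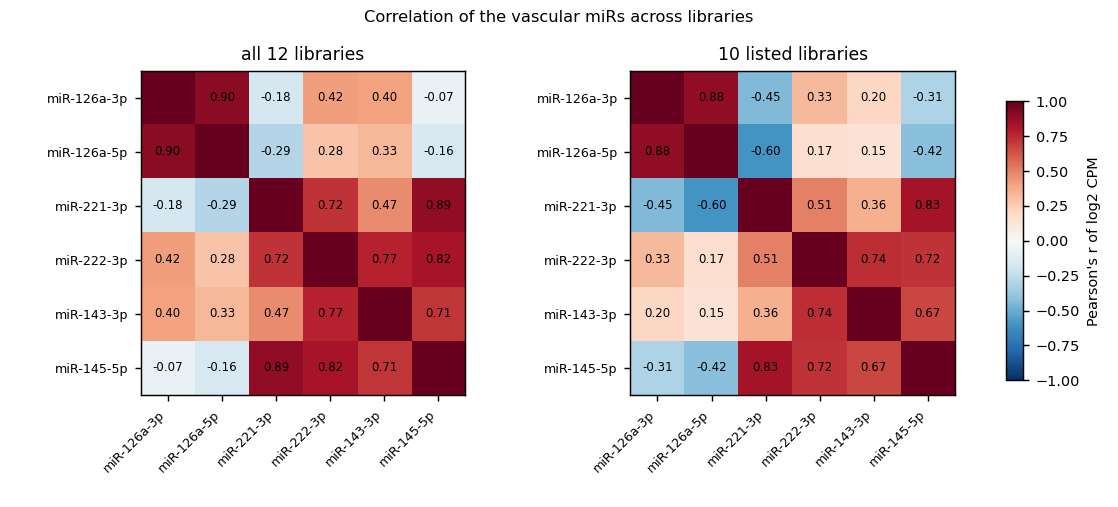
Pearson's r of log2 CPM between the vascular miRs over all 12 libraries (left) and the 10 listed ones (right), coloured from -1 (blue) to 1 (red). The miR-126a arms have r of 0.90 and 0.88 with each other, and from -0.60 to 0.42 with miR-221-3p, miR-222-3p, miR-143-3p and miR-145-5p.

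Among the 74 well-counted miRs, the closest to each vascular miR apart from members were as follows. The choice was made over 12 libraries, and each r over the 10 listed was lower. miR-126a-3p was most like miR-26a-5p (r = 0.68 over 12 libraries and 0.63 over the 10 listed). miR-126a-5p was most like miR-26b-5p (r = 0.73 and 0.68). miR-221-3p was closest to miR-30a-5p (r = 0.86 and 0.76), after miR-145-5p. miR-222-3p was closest to miR-29c-3p (r = 0.93 and 0.90) and miR-23b-3p (r = 0.92 and 0.88). miR-143-3p was closest to miR-181a-5p (r = 0.79 and 0.72) and miR-23b-3p (r = 0.76 and 0.69). For miR-145-5p it was miR-23b-3p (r = 0.87 and 0.81), after miR-221-3p. Thus miR-23b-3p stood near 3 of the 4 miRs outside the miR-126a pair, as a description with no test.

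Other miRs of the same cells were taken from lists. Of 18 endothelial and angiogenesis miRs, 0 were DE with rapamycin, and the smallest unadjusted p values were those of miR-31a-5p (log2 fold change -1.43, edgeR QL test, adjusted p = 0.907) and miR-296-3p (1.90, adjusted p = 0.907). Between days 1 of the 18, miR-218a-5p, was lower at day 21 over 12 libraries (log2 fold change -3.67, edgeR QL test, adjusted p = 0.000591). In the 10 listed libraries 0 of the 18 were DE between days. Of 12 platelet miRs, 0 were DE with rapamycin, where miR-342-3p was at -0.80 (adjusted p = 0.907) and miR-191a-5p at -0.48 (adjusted p = 0.907), and 0 between days, where miR-24-3p was at -0.63 and miR-28-3p at -0.72. The platelet list had a median log2 fold change of -0.19 with rapamycin against -0.10 over all 426 miRs. Of 11 smooth muscle miRs, 0 were DE with rapamycin over 12 libraries, with miR-128-3p at -0.90 (edgeR QL test, adjusted p = 0.731) and miR-21-5p at -0.38. In the 10 listed libraries miR-128-3p was lower with rapamycin (log2 fold change -0.86, edgeR QL test, adjusted p = 0.00636). The study also reports this miR as lower with rapamycin and relates it to smooth muscle. The list was chosen with earlier results of these data known, so this call is no independent finding about smooth muscle miRs. In the same libraries miR-133a-3p was higher but did not pass (2.01, edgeR QL test, adjusted p = 0.140). Its sign depended on the libraries, since at day 7 it was -2.03 over all 12 and 2.50 in the 10 listed. At day 21 it was 1.61 over all 12, and none of these values passed after adjustment. The median of the 11 was 0.37 in the listed libraries, against 0.03 over 365 miRs. Over all 12 libraries it was -0.21, against -0.10 over 426 miRs. Between days over 12 libraries miR-133a-3p, which striated muscle also expresses, was lower at day 21 (-1.91, edgeR QL test, adjusted p = 0.0127). In the 10 listed libraries 0 of the 11 were DE between days. In both comparisons within a day over 12 libraries, at day 7 and at day 21, 0 miRs of these lists were DE. The smallest unadjusted p values at day 7 were those of miR-10b-5p and miR-27b-3p (endothelial), miR-342-3p and miR-191a-5p (platelet), and miR-133a-3p and miR-128-3p (smooth muscle). At day 21 they were those of miR-31a-5p and miR-10b-5p, miR-185-5p and miR-191a-5p, and miR-133a-3p and miR-128-3p.

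The opposite arms of the members were scarce. miR-143-5p, miR-145-3p and miR-221-5p were in the table and together took 0.0184% to 0.0797% of miR counts in a library, while miR-222-5p and miR-126b had no row. None of the 3 was DE, and the smallest unadjusted p was that of miR-221-5p between days (log2 fold change -3.52, SE 1.78, edgeR QL test, adjusted p = 0.334), which was at 0 counts in both day 21 groups, so that this fitted value is no bound. Among marker miRs of other cells, 0 of 5 erythrocyte, 0 of 5 leukocyte, 0 of 5 striated muscle and 0 of 3 liver miRs were DE with rapamycin over 12 libraries. The smallest unadjusted p values were those of miR-451-5p and miR-486 (erythrocyte), miR-150-5p and miR-142-3p (leukocyte), miR-133b-3p and miR-208b-3p (striated muscle), and miR-194-5p and miR-192-5p (liver). In the 10 listed libraries the lymphocyte miR miR-150-5p was lower with rapamycin at day 7 (log2 fold change -2.09, edgeR QL test, adjusted p = 0.00283), and its treatment difference was different between days (interaction -2.28, edgeR QL test, adjusted p = 0.0406). Between days, over 12 libraries, 1 of 5 striated muscle miRs (miR-133a-3p) and 1 of 3 liver miRs (miR-122-5p, log2 fold change -1.84) were lower at day 21, and 0 of 5 erythrocyte and 0 of 5 leukocyte miRs were DE. In the 10 listed libraries miR-122-5p was again DE between days, and 0 striated muscle miRs were. The part of these marker miRs in the values of the vascular miRs was not tested.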

How the data were processed

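Mature miR counts of 12 serum EV libraries were analysed. The authors deposited raw read counts per miR without normalization, after trimming with cutadapt 3.3, mapping with Bowtie 1.3.0 to mRatBN7.2 and assignment to miRBase with miRDeep2 in the miND pipeline. The 10 spike-in sequences were kept out of miR totals. No molecular identifiers are named, so intervals cover counting error only.

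Here, DE was tested on counts with edgeR 4.0.16 (R 4.3.3), with TMM normalization, the QL test and no filter on low counts, and p was adjusted (Benjamini-Hochberg) over all 426 miRs, or over 365 in the 10 listed libraries. Additive models gave treatment (timepoint blocked) and timepoint (treatment blocked), and a model with 4 group means gave day 7, day 21 and their interaction. The edgeR p-values and intervals rest on a spread between libraries that the fit pooled over miRs of like level. They do not measure the spread of each miR on its own. Ratios used a pseudocount of 0.5 and exact permutation of labels within strata (scipy 1.17.1). Log2 CPM used a prior count of 2. Alternatives were other normalizations, count filters, DESeq2 1.42.0, the replicate block and leaving out libraries. On simulated counts for the treatment comparison (403 miRs tested, 188 changed 4-fold), 100% of the 37 changed miRs above 1000 CPM were recovered with 2 false calls. miR-222-3p lies below that level. The simulation gave all miRs the same dispersion and held no libraries that stood apart like the unlisted ones. It therefore gives no power for changes smaller than 4-fold in the libraries at hand.

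The text names every member, list miRs that were DE in a comparison or, in a list with none, the 2 with the smallest p (of the marker lists of other cells, for the treatment only), miRs DE in the whole table, and the 2 miRs most correlated with each member. Members and lists were chosen with earlier results of these data known. Same-numbered replicates were not treated as pairs (mean correlation of same-numbered pairs -0.33 over 74 miRs). With 3 libraries a group and the unlisted libraries among them, this value cannot settle whether the numbers pair the samples.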

Additional observations from a re-analysis of the deposited data

Results flagged for a closer look

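In 36 sets of 6 libraries (the 6 vascular miRs and 3 ratios, each by treatment or by day), 4 held a library whose gap to its nearest neighbour exceeded Dixon's critical value. Chance exceeds that value in about 5% of independent sets of normal values. The sets here share libraries and were tested on the linear scale, so the count of 4 is not read as an excess. miR-221-3p stood at 8579 CPM in vehicle day 7 replicate 1, against 3509 CPM in the next of the 6 vehicle libraries. Among the 6 day 21 libraries, miR-221-3p stood at 5118 CPM in rapamycin day 21 replicate 2, with the next at 2743 CPM. In the same library the ratio of miR-126a-3p to miR-126a-5p was 3.27, against 2.19 in the next of the 6 rapamycin libraries. The ratio of miR-143-3p to miR-145-5p was 18.8 in rapamycin day 21 replicate 1, against 7.59 in the next of the 6 rapamycin libraries.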

How the results depend on the processing

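Over 560 values of the vascular miRs under other settings (4 comparisons, 12 settings and the 12 libraries left out in turn), 6 passed an adjusted p under 0.05, the day differences with calibrator scaling of all 12 libraries, and 89 changed direction, each of them a value that passed no test. With 5 to 9 counts in 4 of the 6 day 21 libraries, miR-222-3p was the member most limited by depth. The cause of the changes listed here was not tested. A calibrator fit restricted to the 10 listed libraries was added after seeing the data.

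DE miRs for the treatment (0 of 426) became 2 in the 10 listed libraries, 2 with independent filtering and 2 in the listed libraries with calibrator scaling. At day 7 (0) they became 2 in the listed libraries and 1 with independent filtering. The interaction (0) gave 1 in the listed libraries, 1 with RLE size factors, 1 with the library total only and 1 with independent filtering. Between days (15) there was 1 in the listed libraries, 28 with RLE, 30 with the library total, 115 with calibrators including 6 vascular miRs, 0 with filterByExpr, 0 with at least 10 counts in every library, 2 with DESeq2 and 5 in the listed libraries with calibrators. Under the filters that gave 0 in edgeR, 26 and 17 miRs had an unadjusted p under 0.05.

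Treatment differences (both days) that changed sign were, in log2, miR-145-5p at 0.26 and the log2 ratio of miR-221-3p to miR-222-3p at 0.041 in the listed libraries. With RLE they were miR-126a-5p at 0.088 and miR-145-5p at 0.077, with DESeq2 0.088 and 0.076, with the library total 0.048 and 0.054, with filterByExpr miR-145-5p at 0.022, and with at least 10 counts miR-126a-5p at 0.040. With calibrators they were miR-126a-3p at -0.50, miR-221-3p at -0.70 and miR-222-3p at -0.88, and in the listed libraries with calibrators miR-126a-3p at -0.33 and miR-145-5p at 0.12. From group sums, the ratio of miR-221-3p to miR-222-3p was 0.19 and that of miR-143-3p to miR-145-5p 0.025.

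At day 7 they were miR-126a-3p at -0.13 and miR-221-3p at 0.54 in the listed libraries. miR-126a-5p and miR-143-3p changed sign to 0.16 and 0.15 with RLE, to 0.16 and 0.15 with DESeq2, to 0.14 and 0.12 with the library total and to 0.13 and 0.11 with at least 10 counts. With calibrators miR-126a-3p was at -0.63, miR-222-3p at -1.33 and miR-145-5p at -1.36, and in the listed libraries with calibrators miR-126a-3p was at -0.28 and miR-221-3p at 0.36. At day 21, miR-126a-5p was at 0.014 with RLE, 0.013 with DESeq2 and 0.0078 with filterByExpr, and miR-126a-3p at -0.36 with calibrators and -0.36 in the listed libraries with calibrators. Between days miR-126a-3p was at 0.010 in the listed libraries.

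With the replicate number as a block, the DE count between days was 10 against 15 and it was 0 for the treatment, at day 7, at day 21 and for the interaction (9, 2, 5 and 3 miRs at an unadjusted p under 0.05), with 0 vascular miRs called. Under the block miR-126a-3p changed sign at day 21 to -0.045. Same-numbered pairs correlated from -0.78 to 0.31, with -0.78 and -0.56 in the pairs that hold an unlisted library. These values do not settle whether the numbers pair the samples.

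Leaving out each library in turn gave 0 to 1 DE miRs for the treatment, with 1 without vehicle day 7 replicate 1 and without rapamycin day 21 replicate 2. It gave 0 to 2 at day 7 (2 without vehicle day 7 replicate 1) and 0 to 2 at day 21 (2 without rapamycin day 21 replicate 2). Between days it gave 7 to 27, with 7 without vehicle day 7 replicate 1 and without vehicle day 21 replicate 1, 27 without vehicle day 7 replicate 3 and 23 without rapamycin day 21 replicate 2. For the interaction it gave 0 to 2, with 2 without rapamycin day 7 replicate 1 and without rapamycin day 21 replicate 2. None of these fits called a vascular miR. Treatment values over both days ran from -0.13 to 0.19 for miR-126a-3p, -0.31 to 0.091 for miR-126a-5p, -0.14 to 0.64 for miR-221-3p, -0.15 to 0.48 for miR-222-3p, -0.31 to 0.057 for miR-143-3p and -0.40 to 0.37 for miR-145-5p. At day 7 they ran from -0.25 to 0.25, -0.34 to 0.11, -0.58 to 0.72, -0.12 to 1.25, -0.43 to 0.18 and -0.25 to 0.94 in the same order. At day 21 they ran from -0.42 to 0.34, -0.73 to 0.24, -0.088 to 0.92, -0.61 to 0.76, -0.60 to 0.17 and -1.14 to 0.48. Between days miR-126a-3p ran from -0.36 to 0.012. The log2 ratio of miR-221-3p to miR-222-3p ran from -0.31 to 0.20 with rapamycin.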
